A study of Sus scrofa with 15 samples.

Results

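Granulosa cells, the cells that line the ovarian follicle and nurse the oocyte, were taken from pig follicles and kept in culture, and their total RNA was hybridised to Affymetrix porcine genome arrays. The changes that built up during culture itself are described here, by the 3 arrays of day 7 set against the 3 arrays of day 1, out of 15 arrays from days 0, 1, 2, 4 and 7. Both groups had already been plated, so the step from fresh to plated cells is not part of the difference. All 23999 probe sets that are not array controls were compared, out of 24123 on the array. The labels call the day 7 cells DFOG and name no treatment, strain or age for either group, so the groups differ, as far as the labels say, in days of culture alone. The replicates are called biological, but nothing says that they came from separate animals or cultures, so the p-values measure only the spread between these arrays.

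In the follicle, granulosa cells convert androgen to estradiol, secrete inhibin and follistatin, and answer to the gonadotropins FSH and LH through receptors on their surface. They rest on a basement membrane that separates them from the theca, and after ovulation they stop dividing and turn to progesterone synthesis as luteal cells. In plated culture, granulosa cells are known to spread and attach through integrins and actin stress fibres, and long culture is known to weaken their hormone-producing character. Matrix proteins such as collagens, fibronectin and small proteoglycans, and contractile proteins such as smooth muscle actin, are typical of fibroblasts, myofibroblasts and smooth muscle cells.

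Values are log2 intensities, and a change is the day 7 mean minus the day 1 mean on that scale, 3 arrays on each day. A change of 1 is thus a 2-fold difference. The standard error (SE) given with a change came from the fit of all 15 arrays. It pools the spread within all 5 days and is not the spread of the 6 arrays of days 1 and 7 alone. A probe set was called higher or lower when its adjusted p was under 0.05 and its change was at least 1 in size. The arrays of 1 day correlated at 0.975 to 0.994 on day 1 and 0.982 to 0.996 on day 7, and arrays of different days at 0.933 to 0.954. The replicate 1 array of every day lay apart from the others on the third principal component, which held 13.1% of the variance. The actin 3′ minus 5′ difference, a measure of RNA integrity, was 0.18, 0.85 and 1.05 on day 1 and 0.22, 0.57 and 0.59 on day 7. On this control the days overlapped through replicate 1 alone, which had the lowest value on every day, and replicates 2 and 3 were higher on day 1. A second pair of actin controls read -0.02, 0.90 and 0.80 on day 1 and 0.525, 0.90 and 0.78 on day 7. There replicates 2 and 3 of the 2 days overlapped. Day 4 replicate 2 had the largest difference of all 15 arrays on the first control, 2.31. The lower quartile of the arrays was at most 4.61 on day 1 and 4.54 on day 7. A value under it was taken as dim, and a change that starts or ends there may be larger than measured. Where detection ends was not tested.

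Between day 1 and day 7, 2168 probe sets were called, which is 9.03% of those tested, 1374 of them higher (5.73%) and 794 lower (3.31%). Rises were also the larger changes: 454 probe sets rose and 174 fell by at least 2, and 64 rose and 10 fell by at least 4. The 3 values of one day did not overlap those of the other for 36.3% of all probe sets, 16.8% with day 7 higher and 19.4% with day 7 lower, and for 2158 of the 2168 called. The median change of all probe sets was -0.06. Of the called probe sets, 1014 carried 1 gene symbol and 1154 could be counted but not named. Taking for each gene the probe set with the highest mean, 799 of 6765 genes were called (11.8%), 556 higher (8.22%) and 243 lower (3.59%), with a median change of -0.02. Of the called genes, 278 had several probe sets; in 83 of them all were called the same way, and no gene had probe sets called in both directions. The shares of genes called are the background against which the counts for each gene group below are to be read. With replicates 2 and 3 of each day only, 2346 probe sets were called, 1572 higher and 774 lower, and without day 4 replicate 2 the number was 2180.

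**Figure D1:**
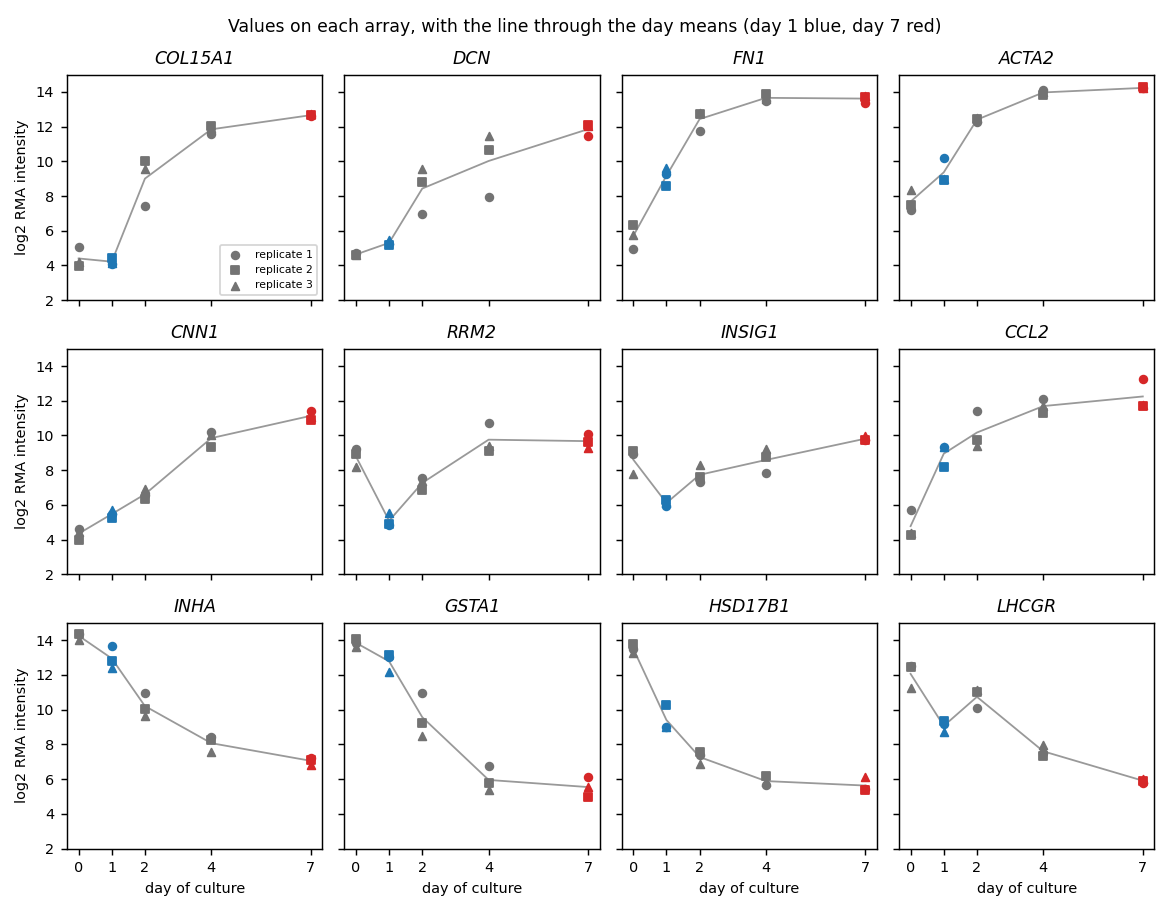
Values of 12 genes on each of the 15 arrays (log2 RMA intensity, vertical axis) by day of culture (horizontal axis), with a symbol for each replicate and a line through the day means. The 12 genes were all called, and their 3 day 1 values (blue) and 3 day 7 values (red) do not overlap. The same holds for 2158 of the 2168 called probe sets and for 36.3% of all probe sets. COL15A1 goes from 4.22 to 12.66 while INHA goes from 12.95 to 7.05.

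Several hormone genes of the granulosa cell fell further after day 1. Of 24 measured genes of granulosa identity, 7 fell (29.2%) and 0 rose (0 higher at an unadjusted p under 0.05), and the median change was -0.50. INHA encodes the inhibin alpha subunit, by which granulosa cells restrain FSH release from the pituitary. It read 13.65, 12.79 and 12.41 on the day 1 arrays and 7.21, 7.13 and 6.82 on the day 7 arrays. The lowest day 1 value was thus far above the highest of day 7, and the level fell by 5.90 ± 0.35 (59.7-fold, adjusted p = 1.29e-07). FST, follistatin, which binds and neutralises activin, was at 11.35, 11.26 and 10.86 on day 1 and 8.32, 8.49 and 7.81 on day 7. The groups lay apart, and the level fell by 2.95 ± 0.21 (adjusted p = 5.10e-07), and both its probe sets were called.

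LHCGR, the receptor for luteinizing hormone, read 9.16, 9.32 and 8.71 on day 1 and 5.80, 5.90 and 6.02 on day 7. Its day 7 values were close together and all below those of day 1, and it fell by 3.15 ± 0.34 (adjusted p = 2.03e-05). The path between was not even: the day 2 arrays read 10.11, 11.01 and 11.11, all above day 1, and the mean then went to 7.60 on day 4. NR5A2, a nuclear receptor that drives ovarian steroid genes, fell by 3.23 ± 0.33 from 11.22, 11.40 and 10.93 to 8.26, 7.93 and 7.66, with 3 of its 5 probe sets called and the others between the extremes of -3.23 and 0.07. The zinc-finger factors GATA4 and GATA6, which act on many gonadal promoters, fell by 1.46 ± 0.31 and 1.52 ± 0.19.

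Other genes of the identity list did not pass. FOXL2, the transcription factor that maintains granulosa fate, was at 5.85, 5.85 and 5.83 on day 1 and 5.94, 5.85 and 6.01 on day 7, a change of 0.09 ± 0.14 (adjusted p = 0.758). FSHR, the receptor for follicle-stimulating hormone, changed by 0.43 ± 0.42 (adjusted p = 0.574), with values of 6.44, 5.20 and 5.41 and 5.36, 6.14 and 6.82 that overlapped; with replicates 2 and 3 only it was called higher, at 1.18. AMH, the anti-Müllerian hormone, changed by -0.29 ± 0.27 to a day 7 mean of 4.46, under the lower quartile, and NR5A1, a nuclear receptor named steroidogenic factor 1, by -0.54 ± 0.18. INHA and FOXL2 thus changed by -5.90 and 0.09 on the same arrays. The FOXL2 probe set was dim throughout, with all 6 values under the array medians of 6.47 to 6.53, so its small change does not show that FOXL2 RNA was kept.

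Genes of steroid synthesis went both ways. Of 21 measured, 5 fell (23.8%) and 2 rose (9.52%), with a median of -0.09. HSD17B1, which makes estradiol from estrone, read 8.97, 10.26 and 8.99 on day 1 and 5.43, 5.34 and 6.11 on day 7. It fell by 3.78 ± 0.33 (adjusted p = 3.49e-06), all day 7 arrays being below all day 1 arrays. FDXR and FDX1, the reductase and the ferredoxin that pass electrons to the mitochondrial steroid enzymes, fell by 1.59 ± 0.20 and 1.31 ± 0.16. POR, the electron donor of the microsomal cytochromes P450, fell by 1.57 ± 0.37.

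In the other direction, HSD3B1, the enzyme that makes progesterone, read 7.84, 7.27 and 8.03 on day 1 and 11.45, 11.20 and 10.98 on day 7. It rose by 3.49 ± 0.43 (adjusted p = 6.73e-05), the groups did not overlap, and both its probe sets were called. TSPO, a protein of the outer mitochondrial membrane, rose by 2.22 ± 0.25, from 7.47, 7.68 and 7.62 to 10.03, 9.65 and 9.76. STAR, which brings cholesterol into mitochondria, and CYP11A1, the side-chain cleavage enzyme, changed by -0.21 ± 0.28 and 0.72 ± 0.71 and did not pass (adjusted p = 0.693 and 0.574), although CYP11A1 was called higher, at 1.36, with replicates 2 and 3 only. CYP19A1, the aromatase gene, changed by -0.15 ± 0.19 (adjusted p = 0.679), on a probe set that may also read the near-identical pig copies of this gene.

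Cholesterol synthesis and uptake rose in part. Of 15 genes, 6 rose (40%) and 0 fell (0 lower at an unadjusted p under 0.05), with a median of 0.90. INSIG1, the sterol-regulated protein that holds the SREBP complex in the endoplasmic reticulum, read 5.94, 6.30 and 6.10 on day 1 and 9.72, 9.75 and 9.98 on day 7. Those day 7 values were close together, and the rise was 3.71 ± 0.37 (adjusted p = 1.34e-05). FDPS and CYP51, enzymes of the pathway to lanosterol and beyond, rose by 1.46 ± 0.25 and 1.43 ± 0.20, and ACAT2 by 1.32 ± 0.20. On day 1 against day 0, 6 genes of this list had been called lower, so that for INSIG1 the changes side by side are -2.50 in the first day and 3.71 from day 1 to day 7. Among genes of lipid handling, 8 of 44 rose (18.2%) and 3 fell (6.82%). SCD, the stearoyl-CoA desaturase, rose by 2.74 ± 0.41. FABP5 and FABP4, fatty acid carriers, rose by 2.69 ± 0.27 and 2.89 ± 0.38, the latter from a day 1 mean of 3.38 that lay under the lower quartile. PLIN2, the coat protein of lipid droplets, fell by 2.96 ± 0.28, and PPARG, the nuclear receptor of lipid storage, by 2.64 ± 0.57.

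Some detoxification genes fell. GSTA1, an alpha-class glutathione transferase abundant in steroid-making cells, had the largest fall of all named genes. Its day 1 arrays read 13.05, 13.16 and 12.15 and its day 7 arrays 6.10, 4.98 and 5.54. The level fell by 7.25 ± 0.53 (152-fold, adjusted p = 8.35e-07), and all 3 probe sets fell, although they may also read other genes of this family. NQO1, a quinone reductase, fell by 2.3 ± 0.34. Of the 24 genes of glutathione and detoxification, 3 fell (12.5%) and 1 rose, and the median of -0.08 lay near that of all genes; without day 1 replicate 3 the number lower was 5, and without day 1 replicate 1 the number higher was 2. In the list of luteinization and cumulus expansion, 3 of 10 fell and 2 rose. AREG, amphiregulin, an EGF-like signal of the ovulatory response, fell by 3.14 ± 0.65 from 8.03, 6.43 and 6.22 to 3.93, 3.73 and 3.61, the latter under the lower quartile. PGR, the progesterone receptor, fell by 1.8 ± 0.26 and PTGES, a prostaglandin E synthase, by 1.44 ± 0.26. ADAMTS1, a protease of the expanding cumulus, rose by 1.90 ± 0.31.

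In the list of fibrillar collagens and small proteoglycans, 9 of 15 rose (60%) and 0 fell (2 lower at an unadjusted p under 0.05), or 1 without day 1 replicate 3, with a median of 1.81. DCN, decorin, a proteoglycan that coats collagen fibrils, read 5.25, 5.20 and 5.46 on day 1 and 11.45, 12.08 and 12.04 on day 7. The rise was 6.55 ± 0.73 (93.8-fold, adjusted p = 2.94e-05) with no overlap, but a second, dimmer DCN probe set changed by 0.17 and was not called. LUM, lumican, a related proteoglycan, went from 2.89, 3.18 and 3.06 to 9.08, 9.31 and 8.75, a rise of 6.0 ± 0.70. Its day 1 values lay under the lower quartile, so the rise may be larger. COL5A1, a chain of the collagen V that seeds fibrils, rose by 4.53 ± 0.21 on its brightest probe set, and 3 of its 6 were called. The collagen I chain COL1A2 rose by 2.22 ± 0.36 and POSTN, periostin, by 2.64 ± 0.57.

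Elastic fibre, fibronectin and matricellular genes gave 7 rises among 15 (46.7%), while 0 fell (1 lower at an unadjusted p under 0.05), with a median of 1.17. FN1, fibronectin, read 9.30, 8.56 and 9.64 on day 1 and 13.38, 13.70 and 13.76 on day 7. It rose by 4.45 ± 0.36 (adjusted p = 1.88e-06), the day 7 arrays all above the day 1 arrays, and 2 of its 4 probe sets were called. MGP, matrix Gla protein, an inhibitor of calcification, went from 3.51, 4.03 and 4.24, under the lower quartile, to 8.77, 9.17 and 9.67. The measured rise was 5.28 ± 0.50 and may be larger. SPP1, osteopontin, rose by 4.76 ± 0.69, FBN1, fibrillin-1, by 3.95 ± 0.55, and THBS2, a thrombospondin, by 3.69 ± 0.53.

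Of 12 genes of collagen processing and cross-linking, 6 rose (50%) and 0 fell (1 lower at an unadjusted p under 0.05), or 1 with the replicate number as a block. LOXL4, a lysyl oxidase, rose by 3.30 ± 0.22 and P4HA2, a prolyl hydroxylase, by 3.11 ± 0.16. LOX itself rose by 2.58 ± 0.58 on its brightest probe set, from 10.03, 9.24 and 8.46 to 12.72, 11.67 and 11.08, while a second one changed by -0.10. Matrix proteases and inhibitors gave 6 rises among 17 (35.3%), while 0 fell (1 lower at an unadjusted p under 0.05). SERPINE2, an inhibitor of urokinase and thrombin, changed by -1.08 (adjusted p = 0.06) and was called lower under 8 alternatives: the 3 other normalizations, the filter on dim probe sets, the replicate block, replicates 2 and 3 only, the mean of its probe sets and the fit without day 7 replicate 1 (-1.08 to -1.38). PLAU, urokinase, rose by 2.42 ± 0.22, MMP2, gelatinase A, by 2.15 ± 0.33, and TIMP2, an inhibitor of such enzymes, by 2.23 ± 0.22.

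The basement membrane list was split, 3 of 7 higher and 1 lower. COL15A1, a collagen of the zone beneath basement membranes, had the largest rise of all named genes. Its day 1 arrays read 4.10, 4.42 and 4.13, under the lower quartile, and its day 7 arrays 12.58, 12.68 and 12.71. The measured rise of 8.44 ± 0.49 (adjusted p = 9.70e-08) may therefore be too small, and the day 7 values were close together. NID2, nidogen-2, a linker of laminin and collagen IV, rose by 4.46 ± 0.48 and LAMB1, the laminin beta-1 chain, by 2.13 ± 0.23. LAMB2, the beta-2 chain of other laminins, fell by 1.5 ± 0.28, from 10.10, 9.42 and 9.22 to 7.70, 8.18 and 8.35.

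Nearly the whole measured set of smooth muscle contractile genes rose. Of 14, 12 rose (85.7%) and 0 fell (1 lower at an unadjusted p under 0.05), with the highest median of all lists, 2.65. ACTA2, the smooth muscle actin of stress fibres, read 10.20, 8.92 and 8.98 on day 1 and 14.22, 14.26 and 14.21 on day 7. Replicate 1 was the highest on day 1, all day 7 arrays lay above it, and the rise was 4.87 ± 0.32 (29.2-fold, adjusted p = 3.0e-07). CNN1, calponin, which binds actin and slows myosin, went from 5.45, 5.27 and 5.70 to 11.41, 10.91 and 11.08, a rise of 5.66 ± 0.25. TAGLN, transgelin, had already been called higher on day 1 and rose further, from 10.29, 10.60 and 10.04 to 13.61, 13.67 and 13.67, by 3.34 ± 0.23. ACTG2, the second smooth muscle actin, rose by 4.41 ± 0.46, TPM2, a tropomyosin, by 3.72 ± 0.30, and SMTN, smoothelin, by 2.97 ± 0.30.

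General actin and adhesion genes rose in part. Of 33 actin cytoskeleton genes, 11 rose (33.3%) and 1 fell, with a median of 0.51. GSN, gelsolin, which severs and caps filaments, rose by 3.27 ± 0.34, from 10.26, 8.63 and 9.04 to 13.08, 12.12 and 12.53. The LIM-domain proteins PDLIM7 and LIMA1 rose by 2.83 ± 0.22 and 2.83 ± 0.51. EZR, ezrin, which ties actin to the membrane of microvilli, was the member that fell, by 1.71 ± 0.23, from 12.66, 12.66 and 12.55 to 11.04, 10.96 and 10.74. Integrin and focal adhesion genes gave 6 rises among 17 (35.3%), while 0 fell (1 lower at an unadjusted p under 0.05). The alpha integrin ITGA8 rose by 3.69 ± 0.33, ITGB3 by 3.16 ± 0.26 and ITGA5, the fibronectin receptor subunit, by 2.59 ± 0.26. Of 10 target genes of YAP and TEAD, the mechanically regulated co-activator and its DNA-binding partners, 3 rose, or 6 with replicates 2 and 3 only, and 0 fell (0 lower at an unadjusted p under 0.05). ANKRD1 among them read 4.72, 5.44 and 5.29 on day 1 and 8.78, 7.98 and 6.68 on day 7. It rose by 2.66 ± 0.71 (adjusted p = 0.0173) and was no longer called once day 1 replicate 1 (2.44) or replicate 1 (2.18) or 2 (2.58) of day 7 was left out. A second, dimmer ANKRD1 probe set changed by 0.07 and was not called.

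**Figure D2:**
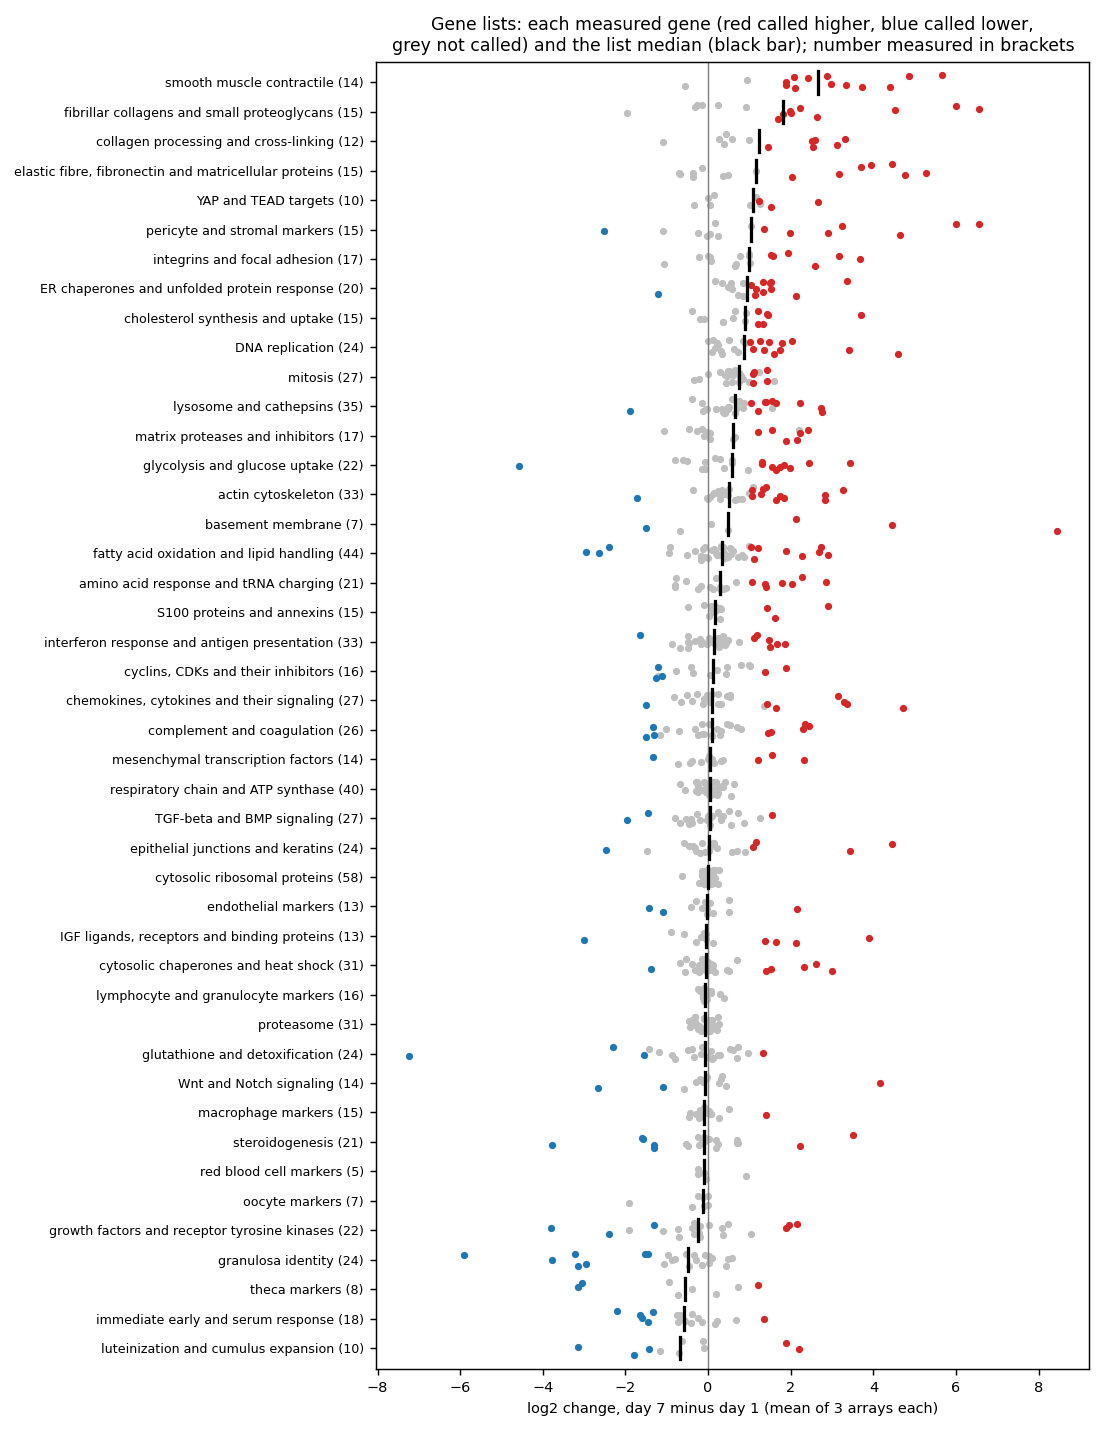
Log2 change from day 1 to day 7 (horizontal axis) of each measured gene of 44 lists (rows, ordered by their median, with the number measured in brackets). Red points were called higher, blue lower and grey neither, and the black bar is the list median. The smooth muscle contractile list lies at the top with a median of 2.65, and the points of the ribosomal, proteasome and respiratory chain lists gather around 0 with none called.

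Stromal markers rose in part, while markers of blood and immune cells stayed low. Of 15 markers of pericytes and stromal cells, 7 rose (46.7%) and 1 fell, and DCN and LUM are among them too. THY1, a surface glycoprotein of fibroblasts and mesenchymal stem cells, read 5.13, 5.48 and 5.34 on day 1 and 9.79, 9.65 and 10.47 on day 7, a rise of 4.66 ± 0.24 without overlap. PDPN, podoplanin, rose by 3.23 ± 0.30 and S100A4 by 2.90 ± 0.49. RGS5, a G-protein regulator known from pericytes, went the other way, from 13, 12.93 and 12.94 to 9.26, 10.81 and 11.23. It fell by 2.52 ± 0.71 (adjusted p = 0.0237), which was not called with any 1 of the day 1 arrays (-2.50, -2.54 and -2.53 for replicates 1, 2 and 3) or day 7 replicate 1 (-1.94) left out. Without day 7 replicate 2, ANGPT1, an angiopoietin, was called lower beside it (-1.43). The mean level over these 15 genes was 6.01 to 6.12 on the day 1 arrays and 7.61 to 7.74 on the day 7 arrays, and with bulk RNA more cells of a type cannot be told apart from more RNA in each cell. The part of stromal cells carried over from the follicle wall in the rises of matrix and contractile genes was not tested.

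For macrophages, 1 of 15 markers rose and 0 fell (1 lower at an unadjusted p under 0.05). The member was CD14, a receptor of bacterial lipid, which rose by 1.40 ± 0.22 on 1 of its 2 probe sets and was not called on their mean. The mean of the macrophage list ran over 4.63 to 4.89 on day 1 and 4.63 to 4.85 on day 7, near the lower quartile of the arrays, and 6 of the 15 lay under it on both days. None of 16 lymphocyte and granulocyte markers, 5 red blood cell markers and 7 oocyte markers was called by limma (0, 1 and 2 at an unadjusted p under 0.05), and 9 of the lymphocyte and granulocyte genes lay under the lower quartile on both days. EPOR, the erythropoietin receptor, was called higher without day 1 replicate 2 (1.14) or replicate 2 (1.16) or 3 (1.10) of day 7, and KIT, a receptor of oocytes, with a change of -1.91, was called lower with the replicate block or in a fit of the 6 arrays alone (both -1.91) or replicates 2 and 3 only (-1.51). Of 13 endothelial markers, ERG rose by 2.15 ± 0.36 and TIE1 and FLT1 fell by 1.43 ± 0.22 and 1.09 ± 0.23, the last not called without replicate 1 (-0.92) or 3 (-0.98) of day 1 or replicate 1 of day 7 (-0.96). Of 8 theca markers, 1 rose, or 2 with replicates 2 and 3 only, and 2 fell, LHCGR among the latter, and INSL3, a peptide hormone of theca cells, changed by -0.94 ± 0.23, less than the minimum change, and was called lower without day 1 replicate 3 (-1.08), without day 7 replicate 1 (-1.06) or with no minimum change. TCF21, the theca member that rose, did so by 1.21 ± 0.30 and was not called without day 1 replicate 2 (0.93) or day 7 replicate 3 (1.07). ALPL, alkaline phosphatase, fell by 3.06 ± 0.34 to a day 7 mean of 4.29.

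Epithelial and mesenchymal adhesion genes were mixed. Of 24 genes of junctions and keratins, 4 rose and 1 fell. JUP, plakoglobin, changed by -1.47 (adjusted p = 0.0551) and was called lower under 7 alternatives, among them the replicate block, scaling by quantiles or by the median, and the fits without day 1 replicate 2 (-1.96) or 3 (-1.78). CDH11, a cadherin of mesenchymal cells, read 4.94, 5.08 and 4.27 on day 1 and 8.77, 9.77 and 9.11 on day 7, a rise of 4.46 ± 0.30 with no overlap. KRT19, an epithelial keratin, rose as well, by 3.43 ± 0.55 from a mean of 4.41 under the lower quartile. MAL2, a protein of apical membrane traffic, fell by 2.47 ± 0.29, to 3.12, also under the lower quartile. Of 14 mesenchymal transcription factors 3 rose, PRRX1 of limb and connective tissue mesenchyme by 2.31 ± 0.51, and 1 fell, HMGA1, a chromatin protein, at -1.34; that call was lost without replicate 1 (-0.99) or 3 (-1.30) of day 1 or replicate 2 of day 7 (-1.11). VIM, vimentin, changed by 0.34 ± 0.14 from an already high 13.61 and stayed under the minimum change.

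Many DNA replication genes rose after a fall in the first day. Of 24, 11 rose from day 1 to day 7 (45.8%) and 0 fell (0 lower at an unadjusted p under 0.05), with a median of 0.87; on day 1 against day 0, 14 had been called lower. RRM2, the ribonucleotide reductase subunit that limits nucleotide supply in S phase, read 9.24, 8.95 and 8.20 on day 0, 4.82, 4.93 and 5.52 on day 1 and 10.10, 9.63 and 9.29 on day 7. Its rise of 4.59 ± 0.39 (adjusted p = 3.12e-06) brought the day 7 arrays above all of day 0. PCNA, the sliding clamp of the polymerases, went from 8.13, 7.99 and 8.21 to 9.74, 9.84 and 9.53, a rise of 1.60 ± 0.21, with a day 0 mean of 10.21. PCLAF, which binds PCNA, rose by 3.42 ± 0.36 and MCM3, part of the replicative helicase, by 2.02 ± 0.24.

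Mitosis genes passed the test in part. Of 27, 5 rose (18.5%) and 0 fell (0 lower at an unadjusted p under 0.05), with a median of 0.74, and 25 had a positive change. The block also called CCNA2, cyclin A2, and HMMR, a spindle-associated protein, higher (1.23 and 1.61, adjusted p = 0.0259 and 0.0126), as did the fit of the 6 arrays alone. The count of called members was 3 with arrays shifted to the same median or with replicates 2 and 3 only, and 2 or 3 without any one of day 1 replicates 1, 2 and 3 and day 7 replicates 1 and 2. In the first day 24 of the 27 had been called lower. From day 1 to day 2 the median change of the 27 was -0.855, a further fall, against 0.37 for the DNA replication genes. CCNB2, a B-type cyclin of mitosis, read 5.99, 6.49 and 6.61 on day 1 and 8.10, 7.73 and 7.55 on day 7, a rise of 1.43 ± 0.26, against 8.73, 8.52 and 8.57 on day 0. Its day 7 values thus lay above day 1 and below day 0. CCNB1 rose by 1.08 ± 0.35, a call lost without replicate 1 (0.84), 2 (1.15) or 3 (1.23) of day 1 or replicate 1 (0.87) or 2 (1.09) of day 7. TOP2A, which untangles DNA before cells divide, changed by 0.44 ± 0.31 (adjusted p = 0.4), with values of 8.73, 8.98 and 9.10 on day 1 and 9.73, 9.35 and 9.05 on day 7. Among cyclins, CDKs and their inhibitors 2 of 16 rose and 3 fell. CCND2, a D-type cyclin, rose by 1.89 ± 0.50 a call lost without replicate 1 of day 1 (1.45) or replicate 2 (1.65) or 3 (1.57) of day 7. The falls were those of the growth-arrest genes GADD45B, BTG1 and GADD45G at changes of -1.26, -1.22 and -1.11; GADD45G was not called without any one of the arrays of these days other than day 1 replicate 1 (-0.99 to -1.19).

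**Figure D3:**
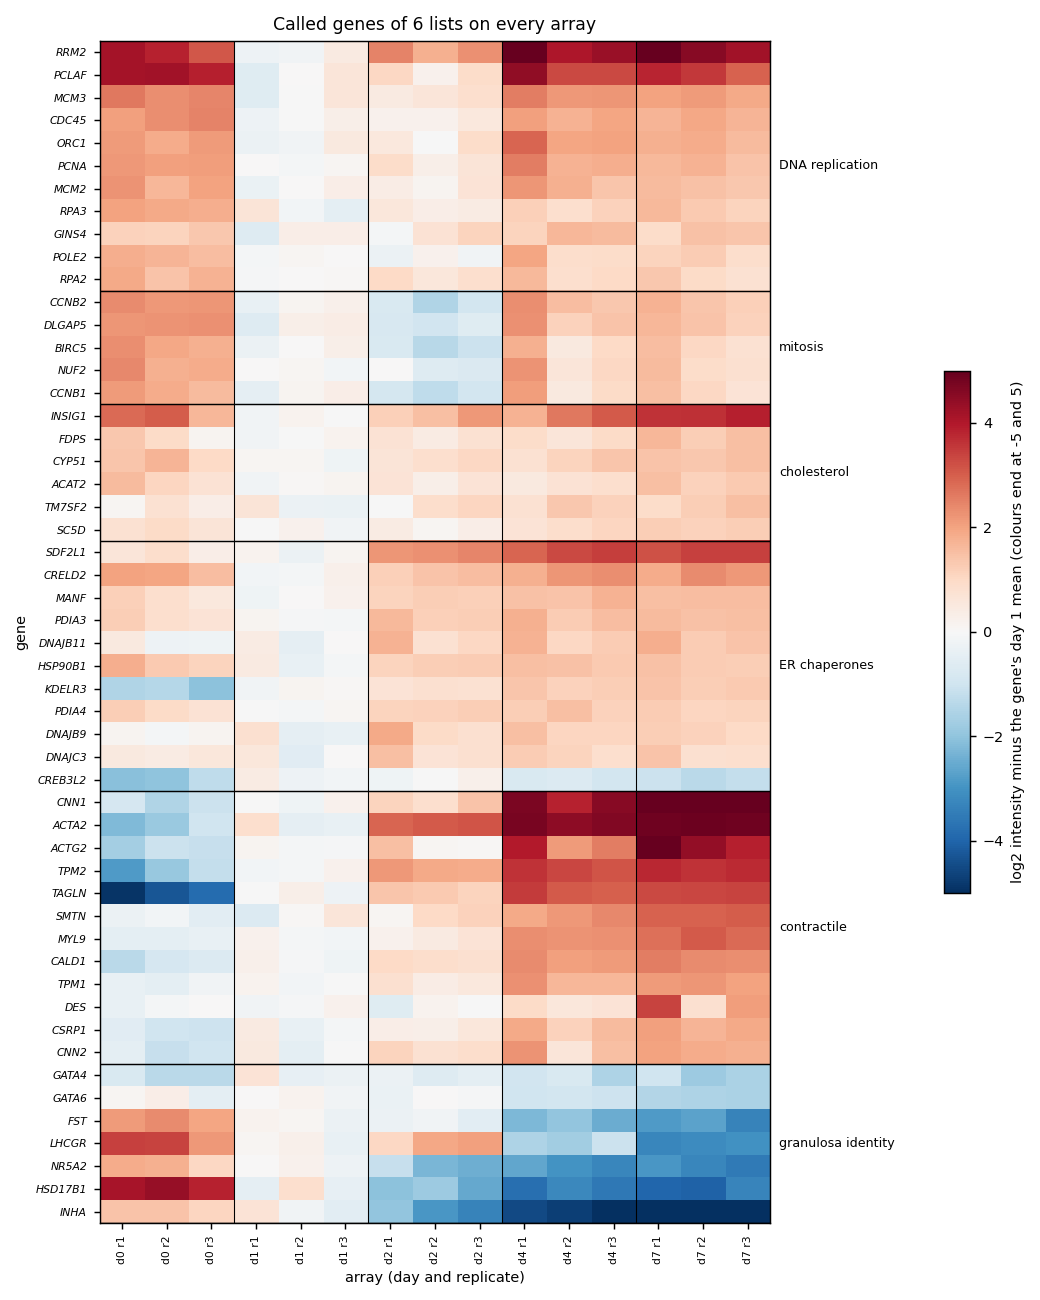
Log2 intensity minus the gene's day 1 mean (colour, from -5 in blue to 5 in red) of the 52 called genes of 6 lists (rows) on all 15 arrays (columns, by day and replicate). DNA replication and mitosis genes are high on day 0, low on days 1 and 2 and higher on days 4 and 7. From day 1 to day 2 the median change of all measured genes is 0.37 for DNA replication and -0.855 for mitosis. Contractile genes are higher on day 7 than on day 1. RRM2 has means of 8.80 on day 0, 5.09 on day 1 and 9.67 on day 7.

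Signalling genes went both ways. IGFBP5, which binds insulin-like growth factors, read 8.44, 6.52 and 6.76 on day 1 and 10.92, 11.26 and 11.25 on day 7, a rise of 3.90 ± 0.68 with the groups apart. IGFBP2, another of the family, went from 11.91, 8.93 and 8.35 to 7.09, 6.62 and 6.49. It fell by 3.0 ± 0.75 (adjusted p = 0.0123), and had an adjusted p of 0.0512 in a fit of the 6 arrays alone. In all, 4 of 13 IGF-related genes rose and 1 fell. In the Wnt and Notch list 1 of 14 rose and 2 fell. SFRP1, a secreted inhibitor of Wnt ligands, rose by 4.16 ± 0.83, from 5.38, 6.04 and 5.82 to 8.84, 10.10 and 10.78. JAG1, a Notch ligand, fell by 2.67 ± 0.49, from 9.70, 10.18 and 10.25 to 7.31, 7.69 and 7.11, on 1 of its 3 probe sets. TCF7L2, a Wnt-responsive transcription factor, fell by 1.09 ± 0.31 and was not called without any one of 5 arrays, day 1 replicates 1 and 2 and day 7 replicates 1, 2 and 3 (-0.91 to -1.13), which leaves 1 called lower.

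Of 27 genes of TGF-beta and BMP signalling, 1 rose and 2 fell, with a median of 0.04. BMP4, a ligand, rose by 1.54 ± 0.31, ID2, a target of BMP signals, fell by 1.96 ± 0.42, and SMAD3, which carries TGF-beta and activin signals to the nucleus, fell by 1.46 ± 0.31; without day 1 replicate 1, without day 7 replicate 1 or with the replicate block the count of rises was 2, and with replicates 2 and 3 only it was 3, with TGFB1 (1.23) and TGFB2 (1.92), both ligands, added. Growth factors and receptor tyrosine kinases gave 3 rises and 3 falls among 22. ANGPT2, the angiopoietin that loosens vessels, fell by 3.81 ± 0.65, from 9.46, 8.70 and 7.92 to 5.16, 4.63 and 4.85, and EFNB2, an ephrin ligand, by 2.39 ± 0.24. GAS6, a ligand of the TAM receptors, and FGFR2, a fibroblast growth factor receptor, rose by 1.96 ± 0.31 and 1.89 ± 0.32.

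Some immediate early genes, which answer quickly to serum and stress, fell. Of 18, 5 were lower (27.8%) and 1 higher on day 7, with a median of -0.59. FOS, a subunit of the AP-1 factor, read 11.28, 10.11 and 9.90 on day 1 and 7.99, 8.65 and 8.05 on day 7 and fell by 2.20 ± 0.38. IER2 and ATF3 fell by 1.61 ± 0.27 and 1.46 ± 0.34. DUSP1, a phosphatase that switches MAP kinases off, rose by 1.34 ± 0.31, the one member to do so.

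Of 27 chemokine and cytokine genes 6 rose (22.2%) and 1 fell. VCAM1, an adhesion molecule for leukocytes, read 7.40, 5.18 and 5.64 on day 1 and 11.33, 10.27 and 10.77 on day 7, a rise of 4.71 ± 0.57 without overlap. CCL2, which attracts monocytes, went from 9.34, 8.16 and 9.36 to 13.28, 11.71 and 11.76 with replicate 1 the highest on both days, a rise of 3.30 ± 0.58 (adjusted p = 0.00114). LIF, a cytokine of the interleukin-6 family, rose by 3.14 ± 0.35 and CXCL14 by 3.36 ± 0.61, the latter from a mean of 4.42 under the lower quartile. SOCS1, an inhibitor of cytokine receptors, fell by 1.49 ± 0.37 and was not called without day 1 replicate 2 (-1.31). Interferon and antigen presentation genes gave 6 rises and 1 fall among 33. The rises included IFI35 at 1.66 ± 0.19 and the sensor of viral RNA DDX58 at 1.48 ± 0.21. SLA-6, a pig class I histocompatibility gene whose probe sets may read its relatives, rose by 1.87 ± 0.18 and was not called on their mean (0.89). Of 26 complement and coagulation genes 5 rose (19.2%) and 3 fell (11.5%). The count of rises was 2 without the dimmest 40% of probe sets, and that of falls was 1 on the mean of each gene's probe sets. C1S, a protease of the classical complement pathway, rose by 2.44 ± 0.24 from under the lower quartile, and C4A fell by 1.51 ± 0.33.

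Many genes of glycolysis and glucose uptake rose: 9 of 22 genes were called higher (40.9%) and 1 lower, with a median of 0.58. LDHA, which makes lactate from pyruvate, read 11.03, 10.93 and 11.05 on day 1 and 13.59, 13.35 and 13.35 on day 7 and rose by 2.43 ± 0.23. SLC16A3, a lactate exporter, rose by 3.44 ± 0.35 and HK1, hexokinase 1, by 1.98 ± 0.25. PDK4, the kinase that blocks pyruvate entry into the citric acid cycle, was the member that fell, from 10.61, 8.72 and 8.24 to 4.73, 4.58 and 4.56, by 4.57 ± 0.76 (adjusted p = 7.69e-04). None of the 40 respiratory chain and ATP synthase genes was called by limma (7 at an unadjusted p under 0.05; NDUFA1, at 1.45, was called on the mean of its probe sets), with changes of -0.68 to 0.64.

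Chaperones of the secretory pathway rose in 10 of 20 cases (50%) with 1 fall, and a median of 0.94. SDF2L1, a component of the chaperone complex of the endoplasmic reticulum, read 5.68, 5.21 and 5.65 on day 1 and 8.70, 8.95 and 8.95 on day 7, a rise of 3.35 ± 0.19. CRELD2 rose by 2.13 ± 0.19, MANF by 1.53 ± 0.17, the disulfide isomerase PDIA3 by 1.52 ± 0.17 and HSP90B1 by 1.32 ± 0.20. Cytosolic chaperones gave 5 rises and 1 fall among 31, with the small heat shock proteins CRYAB and HSPB8 at 2.99 ± 0.33 and 2.31 ± 0.27. A second, dimmer CRYAB probe set changed by 0.06 and was not called. Of 21 genes of amino acid response and tRNA charging 7 rose (33.3%) and 0 fell (3 lower at an unadjusted p under 0.05); without day 7 replicate 3, DDIT3, a stress-induced factor, was called lower (-1.04). PSAT1 and PHGDH, enzymes of serine synthesis, rose by 2.86 ± 0.43 and 1.79 ± 0.13, and MTHFD2 of mitochondrial folate metabolism by 2.03 ± 0.21. Of 35 lysosomal genes 9 rose (25.7%) and 1 fell. LGMN, legumain, rose by 2.73 ± 0.19, from 9.46, 9.0 and 8.96 to 11.80, 11.95 and 11.86, and CTSH, cathepsin H, by 2.21 ± 0.17. NPC1 and NPC2, the pair of proteins that bring cholesterol out of the lysosome, went opposite ways. NPC1 read 10.09, 10.96 and 10.63 on day 1 and 8.82, 8.62 and 8.59 on day 7 and fell by 1.88 ± 0.21. NPC2 read 10.14, 8.81 and 8.47 and 12.13, 11.67 and 11.92 and rose by 2.77 ± 0.34 on 1 of its 3 probe sets, the others within -0.11 to 2.77. Of 15 S100 proteins and annexins 3 rose and 0 fell (0 lower at an unadjusted p under 0.05).

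No gene of the ribosomal or proteasome lists was called by limma. Among 58 cytosolic ribosomal protein genes the changes ran from -0.64 to 0.27 and among 31 proteasome genes from -0.46 to 0.26, with 2 and 5 at an unadjusted p under 0.05.

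Some of the largest changes lay in genes of none of these lists. SLC1A1, a glutamate transporter, read 5.09, 4.94 and 4.43 on day 1 and 10.41, 10.18 and 10.34 on day 7 and rose by 5.49 ± 0.37. ENPP1, an enzyme that makes pyrophosphate, rose by 5.34 ± 0.31, from 5.81, 5.32 and 5.80 to 10.59, 10.84 and 11.51. CPM, a membrane carboxypeptidase, rose by 5.11 ± 0.24, and WFDC1, a secreted protein of the whey acidic protein family, by 5.03 ± 0.43. All 4 had day 7 values wholly above day 1, which the rule for picking the largest rises required. On the falling side DAPL1 changed from 12.89, 9.87 and 7.73 to 5.06, 5.63 and 4.82, and it fell by 4.99 ± 0.89; the day 1 arrays were far from each other. SLC6A4, the serotonin transporter, fell by 3.10 ± 0.42, and NPY2R, a receptor of neuropeptide Y, by 3.27 ± 0.73.

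When the changes began was read from the same fit, by comparing each day with day 1. On day 2 against day 1, 489 probe sets were called higher (2.04%) and 240 lower (1.0%), and on day 4 against day 1, 1277 higher (5.32%) and 561 lower (2.34%). Of the 1374 probe sets higher on day 7, 360 were first called on day 2 (26.2%), 711 on day 4 (51.7%) and 303 on day 7 (22.1%). For the 794 lower ones the numbers were 161 (20.3%), 334 (42.1%) and 299 (37.7%). By day 4 the median probe set had gone 87.9% of its way up, or 82.5% of its way down, by day 2 41.8% and 46.0%. The day means rose at every step for 846 of the 1374 and fell at every step for 545 of the 794. These comparisons share the day 1 arrays. With replicates 2 and 3 only, 570 of the rises and 262 of the falls were first called on day 2.

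INHA was among the early falls, with a day 2 mean of 10.21 against 12.95 on day 1, and FN1 and ACTA2 among the early rises, with day 2 means of 12.43 and 12.40. LUM and MGP were first called on day 4, with day 4 means of 6.66 and 8.11. GATA6 and LOX were first called on day 7, with day 4 means of 10.50 and 10.89 against 11.48 and 9.24 on day 1. Between day 4 and day 7 only 11 probe sets were called higher (0.0458%) and 3 lower (0.0125%), 4 and 0 without day 4 replicate 2, and 29 and 26 with replicates 2 and 3 only. Of the 7 named genes among them, ITGA8 was called on both settings: one of its probe sets read 5.50, 5.12 and 5.12 on day 4 and 7.60, 7.38 and 7.04 on day 7, a change of 2.09 ± 0.16 (adjusted p = 1.06e-04). C1S, at 5.07 on day 4 and 6.95 on day 7, was called on both as well, and LOXL4, A2M, LYVE1, TNNT1 and SPINK5 were not called without day 4 replicate 2, where their adjusted p was 0.0795 to 0.102 and their changes 1.53, 1.68, 1.53, 1.89 and -1.31, against 1.51, 1.76, 1.49, 1.75 and -1.65. LYVE1, TNNT1 and SPINK5 were named after their values were seen.

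**Figure D4:**
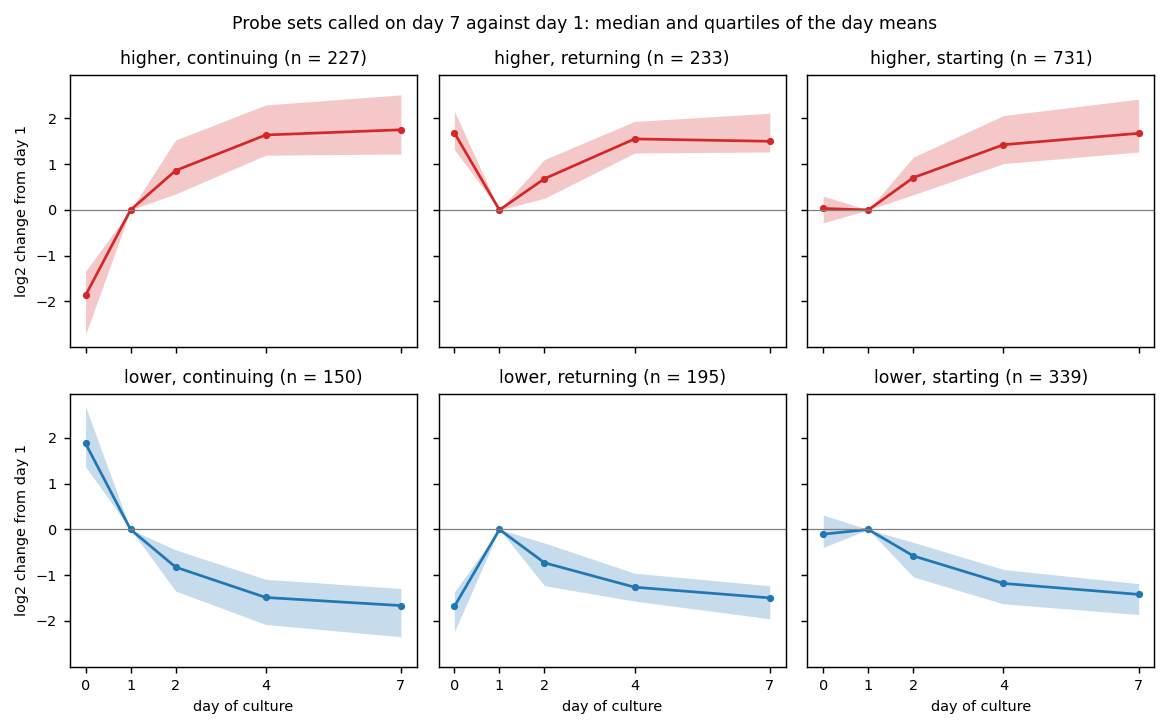
Median (line) and quartiles (band) of the log2 change of day means from day 1 (vertical axis) by day of culture (horizontal axis), for probe sets called on day 7 against day 1. The panels part them by direction and by the change of the first day: continuing, returning, or starting with no call in the first day. By construction all lines pass through 0 on day 1; the medians of the returning rises lie at 1.69 on day 0 and 1.5 on day 7.

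The same probe sets were set beside their change from day 0 to day 1, in which 1553 probe sets were called higher (6.47%) and 1448 lower (6.03%). Of the rises from day 1 to day 7, 227 (16.5%) continued a rise of the first day, 233 (17%) reversed a fall, and 731 (53.2%) had an adjusted p of 0.05 or above in the first day, which does not show that they were steady in it. For the falls the numbers were 150 (18.9%), 195 (24.6%) and 339 (42.7%), and the others, 183 rises and 110 falls, had passed the adjusted p of the first day but not both limits in 1 of these ways. Both comparisons use the day 1 arrays, so that a deviation of those arrays moves the changes in opposite directions. Continuing genes included FN1, CNN1 and VCAM1 among the rises and INHA, HSD17B1 and NR5A2 among the falls. FN1 had means of 5.70, 9.17 and 13.61 on days 0, 1 and 7.

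Genes that peaked or dipped in the first days formed the returning class. TMEM45A, a membrane protein, read 7.45, 7.41 and 7.79 on day 0, 5.59, 6.53 and 5.82 on day 1 and 11.12, 11.33 and 10.87 on day 7, so that its rise of 5.12 ± 0.24 followed a change of -1.57. The day 7 values lay above those of day 0 too. SCARA5, a ferritin receptor, and DPP4, a membrane dipeptidase, rose by 4.38 ± 0.55 and 3.87 ± 0.41 after changes of -2.25 and -2.16. CLIC2, a member of the chloride channel-like family, read 4.09, 6.13 and 5.83 on day 0, 9.20, 9.15 and 8.18 on day 1 and 3.50, 3.30 and 3.60 on day 7. It fell by 5.38 ± 0.59 (adjusted p = 2.44e-05) after a change of 3.50 in the first day. ANGPT2 and AREG had changed by 3.01 and 1.91 in the first day before falling by 3.81 ± 0.65 and 3.14 ± 0.65. Genes without a call in the first day included COL15A1, DCN, LUM and SLC1A1 among the rises and GSTA1 and PDK4 among the falls, with day 0 to day 1 changes of 0.67 for DCN and -1.07 for GSTA1.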

How the data were processed

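The authors deposited log2 intensities of 15 Affymetrix porcine genome arrays, summarised from the probes with RMA (robust multi-array average), according to the submitters' processing notes; its version being not given in the sources used here. That the values are log2 was checked from their range. Control probe sets (124) were left out. Probe sets were named from the array annotation: 10069 had 1 symbol, 198 several and 13732 none.

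All 15 arrays were fitted with limma 3.58.1 in R 4.3.3 (lmFit, eBayes, day as a factor, no block), with Benjamini-Hochberg adjustment over 23999 probe sets. On simulated data for day 7 against day 1, 79.1% of added changes of 1.5 and 98.5% of 3 were recovered, 4.48% of 0.75, with 6 false calls among 23799 unchanged probe sets. The simulated noise was independent for each probe set and array, while the real arrays share deviations, such as those of replicate 1. The count of false calls therefore does not carry over to the real data.

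The number of arrays limits the precision; the median standard error of a change was 0.20. A gene is represented by its brightest probe set. Genes were named by a rule: the 15 largest rises and falls, up to 6 members of each of 44 lists, the 6 largest of each class, and genes fixed by name. The comparison, lists and rule were chosen with earlier results of these data known.

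Deviations of arrays with the same replicate number on days 1 and 7 correlated at 0.49, 0.46 and 0.33, which passed the rule used for pairing (over 0.1 for each pair). The unmatched pairs among replicates 2 and 3 also passed 0.1, at 0.22 and 0.26, while replicate 1 correlated negatively with the other numbers. The values thus set replicate 1 apart but do not show that the numbers 2 and 3 pair arrays. The replicate number as a block was an alternative fit, with 2380 probe sets called. Other alternatives were normalization, a filter on dim probe sets, eBayes settings, the minimum change, the arrays fitted and the mean of a gene's probe sets. The fit without day 4 replicate 2, and classes with replicates 2 and 3 only, were chosen after seeing the data.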

Additional observations from a re-analysis of the deposited data

How the results depend on the processing

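Among genes of the lists or named by the rule, none that was called in the fit of all 15 arrays changed direction under any alternative tried. The settings of the minimum change reuse that fit and could not change a direction. For genes that were not called, the direction was not compared. The number of called probe sets was 1869 to 2380 under the other normalizations, filters, eBayes settings, sets of arrays and the replicate block, against 2168, and 2031 to 2180 with 1 array left out (1261 to 1407 higher, 685 to 822 lower). Only the minimum change moved the totals by over 1.5 times, by its construction: with no minimum, 4524 were called, 2435 higher and 2089 lower, which takes the share of higher calls from 63.4% to 53.8%. With a minimum of 2, 628 were called, 454 higher and 174 lower, 72.3% higher. Of the rises, 42 then continued, 29 returned, 269 started in culture and 114 remained outside these classes, and 94, 220 and 140 were first called on days 2, 4 and 7. Of the falls, 24 continued, 28 returned, 69 started and 53 remained, and 19, 84 and 71 were first called on days 2, 4 and 7. With the replicate block, 277 rises and 166 falls remained outside the classes, against 183 and 110; with replicates 2 and 3 only the numbers were 310 and 178, and 570 rises and 262 falls were first called on day 2 and 219 falls on day 4; the cause was not tested. Of 900 genes of the lists or named by the rule, the replicate block added 15 calls, took none away and changed no other call. Leaving out 1 array of day 1 or 7 took away 18 to 24 calls and added 5 to 12, and averaging the probe sets of each gene took away 20 and added 8. The motif search in promoters was not run. Dim signal limits the low end, where changes may be larger than measured.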
